A study of Homo sapiens with 12 samples.

Results

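The enzymes described here take the isoprenoid pathway beyond farnesyl diphosphate, into protein prenylation, ubiquinone and dolichol. The set has 10 members, GGPS1, FNTA, FNTB, PGGT1B, RABGGTA, RABGGTB, PDSS1, PDSS2, COQ2 and DHDDS, chosen by gene symbol from a table of 59172 features. Each symbol matched 1 feature, and all 10 had enough reads to be tested. RNA was sequenced from HCT-116, a human colorectal carcinoma cell line, in 12 libraries that form 4 groups of 3. In the first group SHP2, the phosphatase encoded by PTPN11, had been silenced with a short hairpin RNA and the cells received CPT-11 for 24 h. The second group received lovastatin for 4 h and then CPT-11 for 24 h, the third CPT-11 alone for 24 h, and the fourth was untreated. CPT-11 (irinotecan) yields a drug that traps topoisomerase I on DNA, and lovastatin inhibits HMG-CoA reductase, the enzyme that makes mevalonate. Lovastatin alone and a control hairpin were not analysed here, so an effect of the hairpin vector or of lovastatin without CPT-11 cannot be told apart from those of the combinations. The silenced samples carry a treatment label that names lovastatin too, which neither their titles nor the protocol text does, and grouping followed the titles. Separate cultures are not stated for the libraries within a group. The spread behind each p-value may therefore be technical.

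Mevalonate is built from acetyl-CoA and turned into isoprene units, which FDPS joins into farnesyl diphosphate. That lipid can be condensed to squalene by FDFT1 for cholesterol, lengthened by GGPS1 to geranylgeranyl diphosphate, or extended to the long tails of ubiquinone and dolichol. Prenyltransferases attach farnesyl or geranylgeranyl groups to the carboxyl end of Ras and Rab proteins and of lamins, which lets these proteins bind membranes. When a statin lowers sterols, the transcription factor SREBP2 is known to raise the genes of the mevalonate and cholesterol pathways. In colorectal carcinoma cells the pathway feeds the membrane binding of small GTPases.

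The values are FPKM, read numbers divided by gene length and by a library factor set by the authors. Whole reads could be recovered from them, and each library held between 14447847 and 16224271 gene reads. Per library, the members had from 124 reads (GGPS1) to 2394 reads (RABGGTB). Differences are on the log2(FPKM + 1) scale, given with their standard error from limma, and a gene was called at a Benjamini-Hochberg adjusted p under 0.05 over the 18062 genes tested. That scale understates changes of genes with low FPKM. PTPN11 checked the labels: it averaged 6.57 ± 0.57 FPKM in SHP2-silenced cells, 44.0 ± 1.2 FPKM after lovastatin and CPT-11, 47.5 ± 3.3 FPKM after CPT-11 and 54.2 ± 1.1 FPKM in untreated cells (SD, n = 3 each). HMGCS1, a sterol-responsive enzyme of the mevalonate trunk, averaged 25.4 FPKM in SHP2-silenced cells, 103 FPKM after lovastatin and CPT-11, 28.7 FPKM after CPT-11 and 29.6 FPKM in untreated cells, so the silenced libraries lacked the high level of the lovastatin libraries. Of 6 markers of colon epithelium, the summed level was 500 to 592 FPKM over the 12 libraries, while 4 fibroblast markers summed to 3.16 to 5.92 FPKM, 3 endothelial markers to 0.0849 to 0.3 FPKM and 4 blood cell markers to 0.00739 to 0.399 FPKM. CPT-11 replicate 3 differed from its group in 1 respect that bears on the results: gene levels changed with the GC content of genes by 0.08 per 10 percentage points in that library, on the log2 scale relative to the mean of all libraries, against -0.15 and -0.17 in the other CPT-11 libraries. Without it, 5455 genes rather than 84 were called between lovastatin with CPT-11 and CPT-11. Member results and list counts in comparisons with CPT-11 alone are therefore also given without that library. Every called difference of a listed gene in those comparisons was called without it too, and none moved by over 1.5 times. That is a weak check, because more of all tested genes were called without that library. For CPT-11 against untreated cells 24.5% were called rather than 16.5%. Against CPT-11, it was 30.2% rather than 0.465% for lovastatin with CPT-11 and 43.5% rather than 22% for silenced cells. Some calls of listed genes were lost in other alternatives. In bulk RNA, fewer cells of a type and less RNA per cell cannot be told apart.

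Promoter windows of 300 bases (250 before and 50 after the start, RefSeq, GRCh38.p14) were found for 9 of the 10 members. Shown here are those of the subunit pair with opposite changes, RABGGTA and RABGGTB, of the branch-point synthase GGPS1, and of FDPS, the trunk enzyme just before it, which responded to lovastatin. Capitals mark CCAAT (NF-Y box) or GGGCGG (GC box) on either strand.
RABGGTA (chr14:24271578-24271877, minus strand): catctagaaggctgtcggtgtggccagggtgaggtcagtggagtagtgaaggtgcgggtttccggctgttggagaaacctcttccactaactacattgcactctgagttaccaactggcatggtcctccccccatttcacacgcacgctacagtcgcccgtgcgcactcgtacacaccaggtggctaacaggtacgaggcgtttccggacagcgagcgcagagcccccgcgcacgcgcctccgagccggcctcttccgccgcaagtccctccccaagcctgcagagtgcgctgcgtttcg
RABGGTB (chr1:75786006-75786305, plus strand): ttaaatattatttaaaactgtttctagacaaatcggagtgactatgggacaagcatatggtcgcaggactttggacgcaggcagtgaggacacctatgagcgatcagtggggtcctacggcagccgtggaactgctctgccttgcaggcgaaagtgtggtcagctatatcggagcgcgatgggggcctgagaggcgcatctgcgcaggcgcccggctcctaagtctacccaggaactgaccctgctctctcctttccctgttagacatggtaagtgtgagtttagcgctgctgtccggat
GGPS1 (chr1:235326966-235327265, plus strand): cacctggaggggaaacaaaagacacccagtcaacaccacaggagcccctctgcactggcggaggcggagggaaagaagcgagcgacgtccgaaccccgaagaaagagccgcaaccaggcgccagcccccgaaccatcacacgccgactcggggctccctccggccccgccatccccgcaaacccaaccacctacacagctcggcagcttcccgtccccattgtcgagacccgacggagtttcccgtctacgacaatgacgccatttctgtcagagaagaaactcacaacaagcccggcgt
FDPS (chr1:155308616-155308915, plus strand): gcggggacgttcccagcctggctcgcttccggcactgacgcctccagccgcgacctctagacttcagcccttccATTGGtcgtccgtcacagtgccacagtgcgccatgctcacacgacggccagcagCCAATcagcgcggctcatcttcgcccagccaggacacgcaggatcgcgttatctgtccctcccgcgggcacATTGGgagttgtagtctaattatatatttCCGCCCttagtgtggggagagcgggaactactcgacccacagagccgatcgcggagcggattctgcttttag
Windows were searched on both strands for the sterol regulatory element core TCACNCCAC, the NF-Y box CCAAT, the GC box GGGCGG, the E box CACGTG and, by name, the p53 response element. Among 35116 promoter windows, 1.13% held the sterol core, 34.6% CCAAT, 45% GGGCGG, 7.26% CACGTG and 0.0285% the p53 element. The windows of RABGGTA, RABGGTB, GGPS1 and PGGT1B held none of these letters. COQ2 held 2 CCAAT and 1 GGGCGG, FNTB held 1 of each, PDSS2 held 1 CCAAT and 2 GGGCGG, PDSS1 held 1 GGGCGG, and DHDDS held 2 CACGTG and 2 GGGCGG. FDPS held 3 CCAAT and 1 GGGCGG, while IDI1, which also responded to lovastatin, held no CCAAT and 4 GGGCGG. No member's window held the sterol core or the p53 element, and nor did that of FDPS. A match is a description of letters in this window and not of binding.

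The Rab prenylating enzyme showed the largest differences among the members. Rab geranylgeranyl transferase attaches geranylgeranyl groups to Rab proteins, which direct vesicle traffic. Its alpha subunit RABGGTA (ENSG00000100949, chromosome 14, 24265538 to 24271739, minus strand, GRCh38) measured 12.6, 12.3 and 14.0 FPKM in SHP2-silenced cells with CPT-11, 13.7, 13.4 and 14.6 FPKM after lovastatin and CPT-11, 12.4, 14.7 and 15.1 FPKM after CPT-11, and 9.16, 9.20 and 8.06 FPKM in untreated cells. Every library given CPT-11 lay above every untreated library, and the 3 groups given CPT-11 overlapped each other. The gene rose by 0.62 ± 0.08 after CPT-11 (adjusted p = 0.00048), by 0.61 ± 0.08 after lovastatin and CPT-11 (adjusted p = 0.00031) and by 0.51 ± 0.08 in SHP2-silenced cells with CPT-11 (adjusted p = 0.00074), each against untreated cells. These 3 comparisons share the untreated libraries. Without CPT-11 replicate 3 the difference after CPT-11 was 0.57 (adjusted p = 0.00093). The ratio of mean FPKM to untreated cells was 1.47 in silenced cells, 1.58 after lovastatin and 1.60 after CPT-11. No call was lost in any alternative.

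The beta subunit RABGGTB, which holds the catalytic site (ENSG00000137955, chromosome 1, 75786197 to 75795079, plus strand), was the most abundant member. It measured 17.6, 18.1 and 19.4 FPKM in SHP2-silenced cells, 21.8, 22.5 and 22.4 FPKM after lovastatin and CPT-11, 21.7, 21.2 and 19.8 FPKM after CPT-11, and 24.2, 24.3 and 27.4 FPKM in untreated cells. All 4 groups were separate from each other in this gene, with the silenced libraries lowest and the untreated highest. RABGGTB fell by 0.44 on the log2 scale in silenced cells against untreated cells (SE 0.06, adjusted p = 0.00029) and by 0.27 after CPT-11 against untreated cells (SE 0.06, adjusted p = 0.013). It also fell by 0.26 in silenced cells against lovastatin with CPT-11 (SE 0.06, adjusted p = 0.026). After lovastatin and CPT-11 the difference to untreated cells was -0.18 ± 0.06 (adjusted p = 0.052). The difference after CPT-11 was -0.23 (adjusted p = 0.02) without CPT-11 replicate 3. Its call was lost without untreated replicate 3 (-0.21, adjusted p = 0.052) and with only the compared groups in the model (adjusted p = 0.093). The call against lovastatin was lost without silenced replicate 1 or 2 or any lovastatin library (adjusted p = 0.062 to 0.11). Exons of RABGGTB hold 3 small nucleolar RNA genes, SNORD45A, SNORD45B and SNORD45C, and overlap ACADM, so 6.63% of its exon bases are shared and reads there cannot be assigned with certainty.

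After CPT-11 and in silenced cells the subunits thus moved in opposite directions against untreated cells, and their ratio differed between untreated and treated libraries. RABGGTA over RABGGTB was 0.714, 0.677 and 0.722 in SHP2-silenced cells, 0.629, 0.597 and 0.653 after lovastatin and CPT-11, 0.573, 0.692 and 0.765 after CPT-11, and 0.378, 0.378 and 0.294 in untreated cells. The lowest treated library was above the highest untreated library, with no test given for the ratio. GC content moved alongside: exons of RABGGTA are 61.0% GC and those of RABGGTB 37.3%, and the tested genes have a median of 48.8%. The slope of level on GC, per 10 points, was 0.1 to 0.13 in silenced libraries and 0.01 to 0.07 after lovastatin and CPT-11. It was -0.15, -0.17 and 0.08 after CPT-11 and -0.14 to -0.01 in untreated libraries. The slope thus differed between groups, and not in CPT-11 replicate 3 alone. Correcting for it removes any change that goes with GC content or length. Whether such a change came from the treatment or from the libraries cannot be told apart, here or for the corrected values of other genes. With a correction for GC content and length, chosen after seeing the data, RABGGTA differed from untreated cells by 0.26 (adjusted p = 0.027) in silenced cells, 0.42 (adjusted p = 0.0023) after lovastatin and 0.60 (adjusted p = 0.00029) after CPT-11. RABGGTB then differed by -0.23 (adjusted p = 0.0024), -0.07 (adjusted p = 0.26) and -0.27 (adjusted p = 0.0014) in the same order. The correction also gave RABGGTA a call between silenced cells and CPT-11 of -0.34 (adjusted p = 0.018), where the uncorrected difference was -0.11 ± 0.08 (adjusted p = 0.35).

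**Figure D1:**
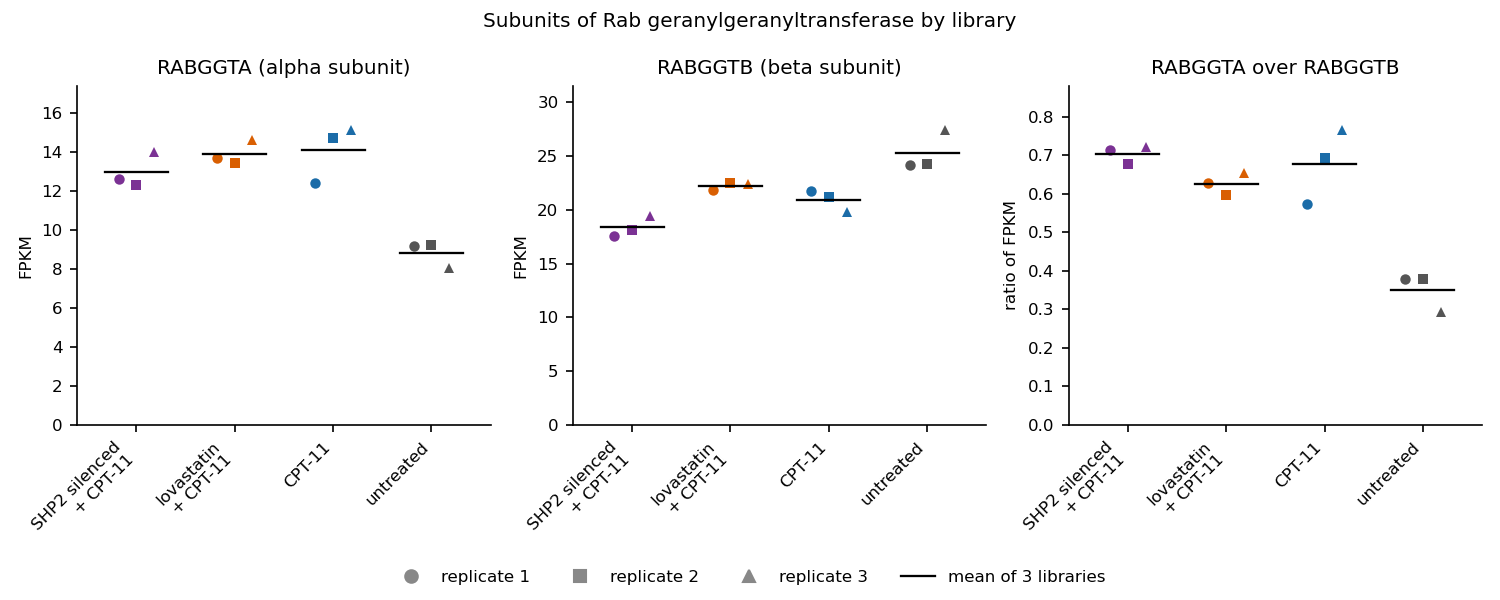
FPKM of RABGGTA and RABGGTB and the ratio of the 2 values in each library, by group, with the mean of 3 libraries as a bar. Untreated libraries have the lowest RABGGTA (8.06 to 9.20 FPKM), the highest RABGGTB (24.2 to 27.4 FPKM) and the lowest ratio (0.294 to 0.378).

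GGPS1, which lengthens farnesyl to geranylgeranyl diphosphate, had the lowest level of the members and no call in any comparison (chromosome 1, 235327350 to 235344532, plus strand). Its libraries read 2.81, 2.30 and 2.29 FPKM in SHP2-silenced cells, 2.83, 2.46 and 2.40 FPKM after lovastatin and CPT-11, 2.63, 2.47 and 2.68 FPKM after CPT-11, and 2.25, 3.05 and 3.22 FPKM in untreated cells. The groups overlapped in all 6 comparisons. After lovastatin and CPT-11, GGPS1 differed from CPT-11 by -0.01 ± 0.11 (95% interval -0.25 to 0.22, adjusted p = 0.96), while its upstream neighbour FDPS rose by 1.1 ± 0.06 (adjusted p = 3.8e-06). FDPS measured 39.5, 39.8 and 40.5 FPKM after lovastatin and CPT-11, against 16.9, 18.2 and 19.3 FPKM after CPT-11. GGPS1 shares 41.0% of its exon bases with exons of other genes, mostly with TBCE on the same strand, and how reads there were counted is not given in the sources used here.

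Farnesyltransferase and geranylgeranyl transferase I share the alpha subunit FNTA (chromosome 8, 43034194 to 43085788, plus strand), and no call was made for it. FNTA measured 5.24, 4.80 and 5.04 FPKM in SHP2-silenced cells, 5.53, 4.78 and 5.60 FPKM after lovastatin and CPT-11, 6.58, 5.76 and 4.85 FPKM after CPT-11, and 4.68, 4.96 and 4.72 FPKM in untreated cells. CPT-11 replicate 3 lay within the untreated range and the other CPT-11 libraries above it, so the difference of 0.21 ± 0.09 after CPT-11 (adjusted p = 0.16) became 0.31 (adjusted p = 0.018) without that library. FNTA has 38.9% GC, and with the GC and length correction it differed from untreated cells by 0.28 (adjusted p = 0.0085) in silenced cells, 0.26 (adjusted p = 0.014) after lovastatin and CPT-11 and 0.22 (adjusted p = 0.041) after CPT-11. FNTB (chromosome 14, 64986720 to 65062652, plus strand), the beta subunit of farnesyltransferase, which modifies Ras and lamins, averaged 2.69 ± 0.19 FPKM in silenced cells, 2.74 ± 0.50 FPKM after lovastatin and CPT-11, 2.67 ± 0.22 FPKM after CPT-11 and 3.13 ± 0.23 FPKM in untreated cells. Its differences to untreated cells were -0.15 to -0.17 and none passed the test, although with the GC and length correction silenced cells were called (-0.27, adjusted p = 0.034). The readthrough gene CHURC1-FNTB shares 42.1% of the exon bases of FNTB, so its reads are uncertain too.

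PGGT1B (ENSG00000164219, chromosome 5, 115204012 to 115262872, minus strand), the beta subunit of geranylgeranyl transferase I, which modifies Rap1 and other small GTPases, was lowest in SHP2-silenced cells. It measured 3.23, 3.13 and 3.40 FPKM there, 3.41, 3.63 and 3.61 FPKM after lovastatin and CPT-11, 5.01, 4.79 and 3.54 FPKM after CPT-11, and 3.54, 4.12 and 4.26 FPKM in untreated cells. CPT-11 replicate 3 was at the level of the lovastatin libraries, and the other CPT-11 libraries were the highest of all 12. PGGT1B fell by 0.35 on the log2 scale in silenced cells against CPT-11 (SE 0.10, adjusted p = 0.038). After lovastatin and CPT-11 it differed from CPT-11 by -0.25 ± 0.10 (adjusted p = 0.23). Without CPT-11 replicate 3 these differences were -0.47 (adjusted p = 0.00086) and -0.37 (adjusted p = 0.0062). PGGT1B has the lowest GC content of the members, 34.0%, and with the GC and length correction the difference of silenced cells to CPT-11 was -0.10 (adjusted p = 0.22). That of lovastatin with CPT-11 to CPT-11 was then -0.12 (adjusted p = 0.25). The call in silenced cells against CPT-11 was lost in 9 of the 12 runs that left out 1 library, with an adjusted p of up to 0.15.

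**Figure D2:**
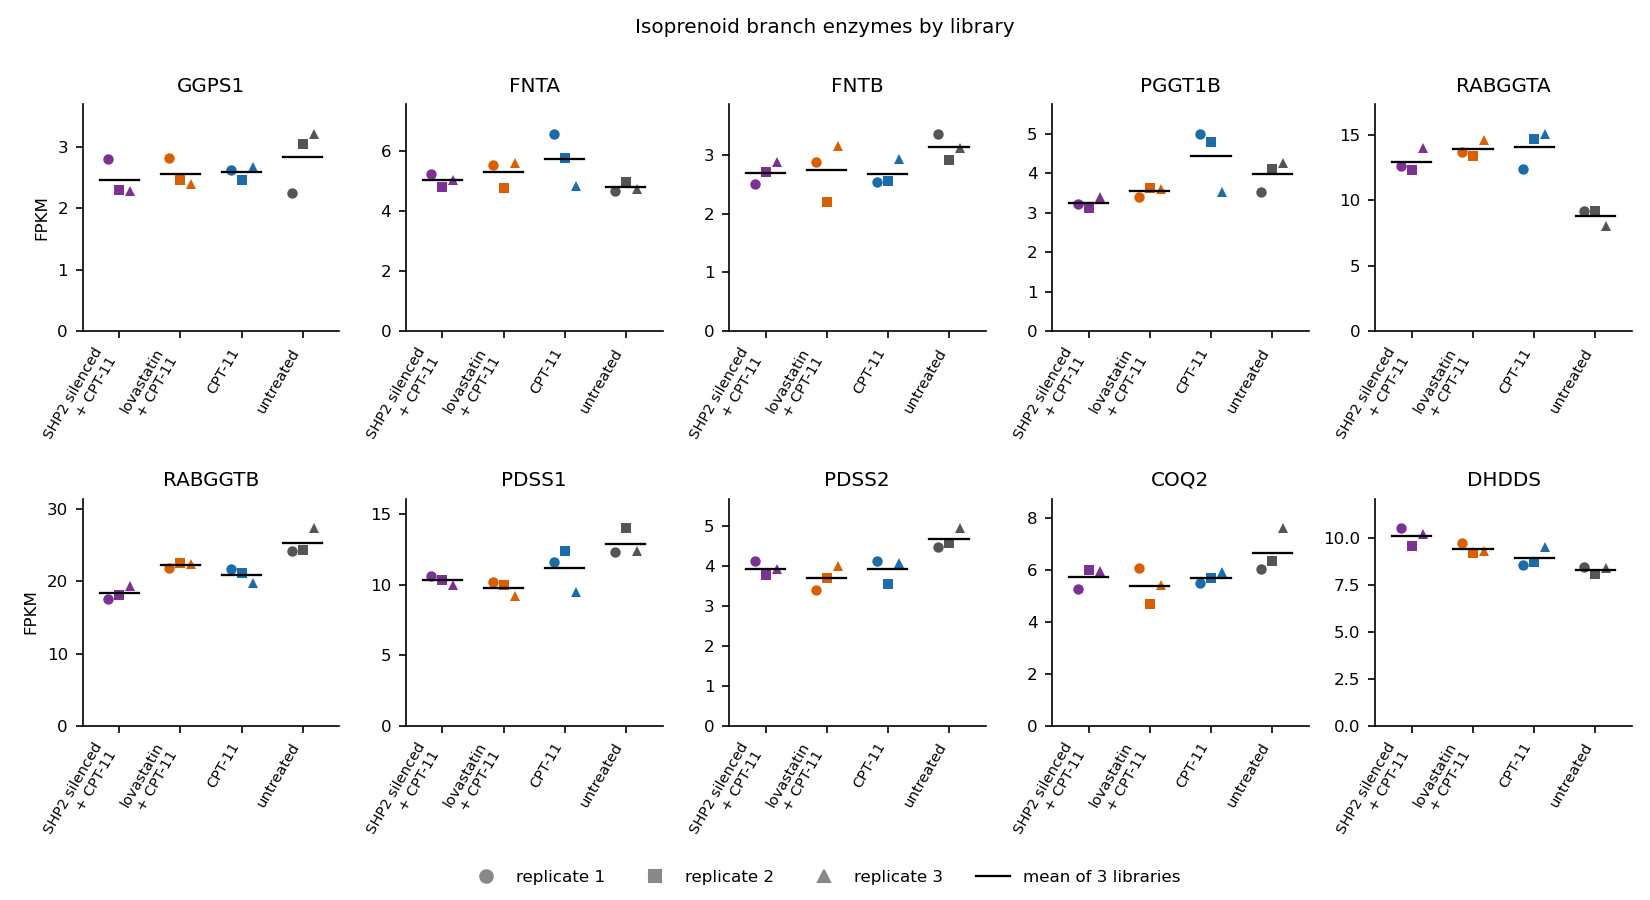
FPKM of each of the 10 members in each library, by group, with the mean of 3 libraries as a bar and an axis from 0 in each panel. RABGGTA is lower in all untreated libraries than in any other, and PGGT1B, FNTA and PDSS1 have CPT-11 replicate 3 below the other 2 of its group.

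PDSS1 fell in SHP2-silenced cells and after lovastatin and CPT-11, and PDSS2 after lovastatin and CPT-11, each against untreated cells. They encode the subunits of decaprenyl diphosphate synthase, which builds that tail. PDSS1 (ENSG00000148459, chromosome 10, 26697659 to 26746798, plus strand) measured 10.6, 10.3 and 10 FPKM in SHP2-silenced cells, 10.2, 9.98 and 9.17 FPKM after lovastatin and CPT-11, 11.6, 12.4 and 9.46 FPKM after CPT-11, and 12.3, 14.0 and 12.4 FPKM in untreated cells. The silenced and lovastatin libraries all lay below the untreated ones, and the CPT-11 libraries overlapped them. PDSS1 shares 10.5% of its exon bases with ABI1 on the opposite strand, and how reads there were counted is not given in the sources used here. PDSS1 fell by 0.36 on the log2 scale after lovastatin and CPT-11 (SE 0.09, adjusted p = 0.011) and by 0.30 in silenced cells (SE 0.09, adjusted p = 0.022), each against untreated cells, while CPT-11 differed from untreated cells by -0.20 ± 0.09 (adjusted p = 0.16), or by -0.09 (adjusted p = 0.35) without CPT-11 replicate 3. The first call held in all alternatives. The second was lost with no filter on low values (-0.30, adjusted p = 0.053), with values scaled to library totals (-0.21, adjusted p = 0.078) and without silenced replicate 2 or 3 or untreated replicate 2 (adjusted p = 0.059 to 0.092).

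PDSS2 (ENSG00000164494, chromosome 6, 107152557 to 107459564, minus strand) measured 4.11, 3.76 and 3.91 FPKM in SHP2-silenced cells, 3.40, 3.69 and 3.99 FPKM after lovastatin and CPT-11, 4.12, 3.55 and 4.06 FPKM after CPT-11, and 4.47, 4.58 and 4.94 FPKM in untreated cells. No treated library reached the untreated range. PDSS2 fell by 0.27 after lovastatin and CPT-11 against untreated cells (SE 0.08, adjusted p = 0.021). That call was lost with scaling to library totals, under the correction for GC and length, and when leaving out lovastatin replicate 1 or 2 or untreated replicate 2 or 3 (adjusted p = 0.052 to 0.084). The differences to untreated cells were -0.20 ± 0.08 (adjusted p = 0.061) in silenced cells and -0.21 ± 0.08 (adjusted p = 0.095) after CPT-11, the last being -0.23 (adjusted p = 0.067) without CPT-11 replicate 3. COQ2 (chromosome 4, 83261536 to 83284914, minus strand), which joins the tail to the ring of ubiquinone, averaged 5.73 ± 0.41 FPKM in silenced cells, 5.38 ± 0.68 FPKM after lovastatin and CPT-11, 5.69 ± 0.23 FPKM after CPT-11 and 6.65 ± 0.83 FPKM in untreated cells. Its differences to untreated cells ran from -0.18 to -0.26 and none passed the test (adjusted p = 0.066 to 0.23), although with the GC and length correction lovastatin and CPT-11 gave a call (-0.28, adjusted p = 0.03).

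DHDDS (ENSG00000117682, chromosome 1, 26432282 to 26471294, plus strand), the catalytic subunit of the enzyme that makes the dolichol chain, was highest in SHP2-silenced cells. Its values were 10.5, 9.56 and 10.2 FPKM in those cells, 9.73, 9.20 and 9.28 FPKM after lovastatin and CPT-11, 8.55, 8.69 and 9.47 FPKM after CPT-11, and 8.43, 8.04 and 8.38 FPKM in untreated cells. All libraries given CPT-11 lay above the untreated ones. DHDDS rose by 0.25 ± 0.06 in silenced cells against untreated cells (adjusted p = 0.0056), and this call held in all alternatives. Against untreated cells the differences were 0.16 ± 0.06 (adjusted p = 0.054) after lovastatin and CPT-11 and 0.09 ± 0.06 (adjusted p = 0.32) after CPT-11, the last being 0.05 (adjusted p = 0.53) without CPT-11 replicate 3.

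By mean FPKM over untreated cells, the members ran from RABGGTB (25.3) and PDSS1 (12.9) through RABGGTA (8.81), DHDDS (8.28), COQ2 (6.65), FNTA (4.79), PDSS2 (4.66), PGGT1B (3.97) and FNTB (3.13) to GGPS1 (2.84). RABGGTA and DHDDS overlapped in their untreated libraries, as did FNTA and PDSS2, and FNTB and GGPS1. RABGGTA passed PDSS1 in the CPT-11 groups, with 12.9 against 10.3 FPKM in silenced cells, 13.9 against 9.78 FPKM after lovastatin and 14.1 against 11.1 FPKM after CPT-11. Asked whether any group differed, the moderated F test called 4 of the 10 members, RABGGTA (adjusted p = 0.00048), RABGGTB (0.0015), DHDDS (0.023) and PDSS1 (0.028), where it called 40.7% of all tested genes.

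The counts of called members with all libraries lay near the background or below it. After CPT-11, 1 of 10 members rose and 1 fell against untreated cells, where 16.5% of all tested genes were called. In lovastatin with CPT-11 against untreated cells, 1 member rose and 2 fell, with 29% of genes called. Silenced cells against untreated cells gave 2 members higher and 2 lower, with 37.8% of genes called. Against CPT-11, silenced cells gave 1 lower member, with 22% of genes called and 12% called lower. Against lovastatin with CPT-11 they gave 1 lower member, with 6.84% of genes called and 4.26% called lower. Libraries of the 2 groups did not overlap for 8 members between silenced and untreated cells (54.1% of all genes), for 5 between lovastatin with CPT-11 and untreated cells (47.3%) and for 5 between CPT-11 and untreated cells (29.4%). They did not overlap for 3 members between silenced cells and CPT-11 (35.8%), for 2 between silenced cells and lovastatin with CPT-11 (35.5%) and for 1 between lovastatin with CPT-11 and CPT-11 (17.1%). Without CPT-11 replicate 3, CPT-11 against untreated cells gave 4 called members, RABGGTA, RABGGTB, FNTA and PGGT1B (0.25, adjusted p = 0.041), with 24.5% of genes called, and silenced cells against CPT-11 gave 5, with 43.5% called. The 5 were FNTA (-0.25, adjusted p = 0.027), PGGT1B, RABGGTB (-0.21, adjusted p = 0.016), PDSS1 (-0.20, adjusted p = 0.032) and DHDDS (0.20, adjusted p = 0.011). With the GC and length correction and all libraries, none of these 5 was called between silenced cells and CPT-11. FNTA then differed by 0.06 (adjusted p = 0.57), PGGT1B by -0.10 (adjusted p = 0.22) and PDSS1 by -0.04 (adjusted p = 0.7). DHDDS differed by 0.12 (adjusted p = 0.093). RABGGTB differed by 0.04 (adjusted p = 0.6), where its uncorrected difference was -0.18 ± 0.06 (adjusted p = 0.061). The median difference of the members to untreated cells was -0.17 in silenced cells, -0.14 after lovastatin and CPT-11 and -0.13 after CPT-11, where the median of all genes was 0 to -0.01. These medians are without the GC and length correction. With it the members' differences of silenced to untreated cells ran from -0.27 (FNTB) to 0.28 (FNTA). GGPS1 and PGGT1B then changed sign, to 0.01 and 0.02, and no member changed sign the other way.

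**Figure D3:**
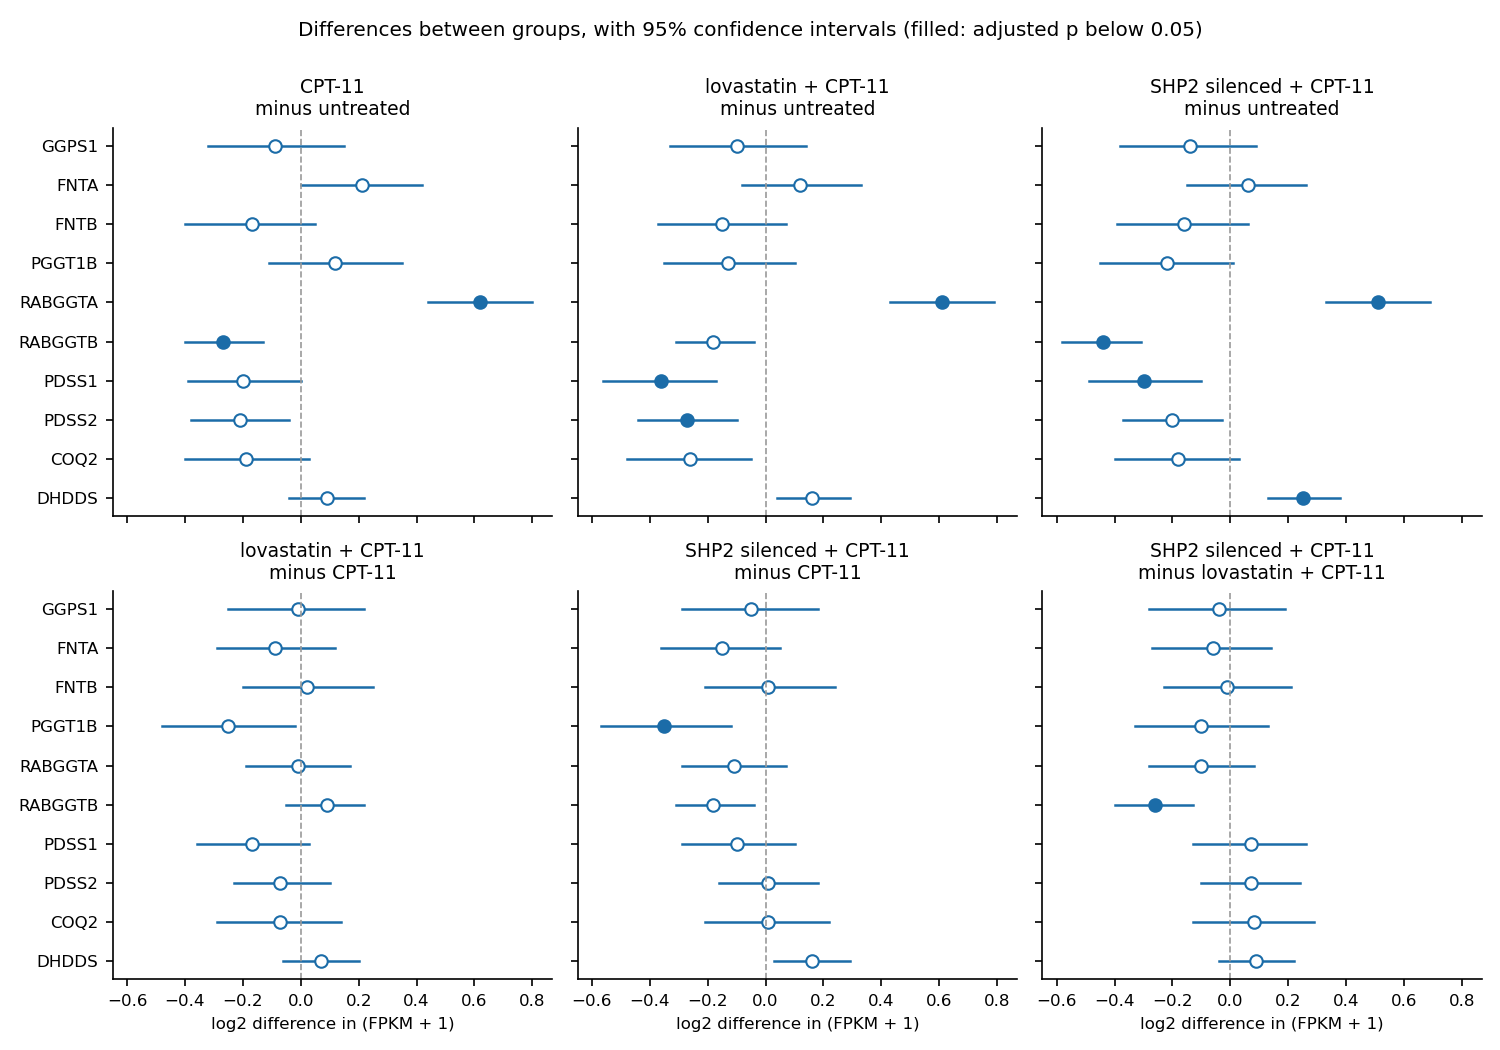
Log2 differences in (FPKM + 1) of the 10 members in 6 comparisons, with 95% confidence intervals, filled where the adjusted p is under 0.05. RABGGTA is the only member with a filled point above 0.5, in the 3 comparisons with untreated cells.

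Lovastatin before CPT-11 raised most genes upstream of the branch point and the first enzymes of the sterol branch, and no member passed the test. Of 8 enzymes of the mevalonate trunk, 7 rose against CPT-11 and none fell, with a median difference of 1.2, and 0.465% of all tested genes were called. HMGCS1 rose by 1.81 ± 0.07 (adjusted p = 1.2e-07), ACAT2, which starts the trunk from acetyl-CoA, by 1.26 ± 0.08 (adjusted p = 1.4e-05) and IDI1, the isomerase that supplies FDPS, by 1.23 ± 0.10 (adjusted p = 6.3e-05). All 3 enzymes of the first sterol steps rose too, FDFT1 by 1.32 ± 0.05, SQLE by 0.72 ± 0.05 and LSS by 1.41 ± 0.10. Of the 10 members 0 were called by limma, 1 had an unadjusted p under 0.05, and with voom the count was also 0. A share of 0 among the members is close to that background. The members' differences ran from -0.25 to 0.09, and the 95% intervals of all 10 lay within -0.48 to 0.25, below the smallest difference of a called trunk or sterol gene (0.72). Without CPT-11 replicate 3, PGGT1B (-0.37, adjusted p = 0.0062) and PDSS1 (-0.27, adjusted p = 0.013) were called lower, with 30.2% of genes called. With the GC and length correction and all libraries, neither was called, PGGT1B at -0.12 (adjusted p = 0.25) and PDSS1 at -0.12 (adjusted p = 0.37). The response of the trunk was present without CPT-11 replicate 3 as well, with 8 of 8 called higher.

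**Figure D4:**
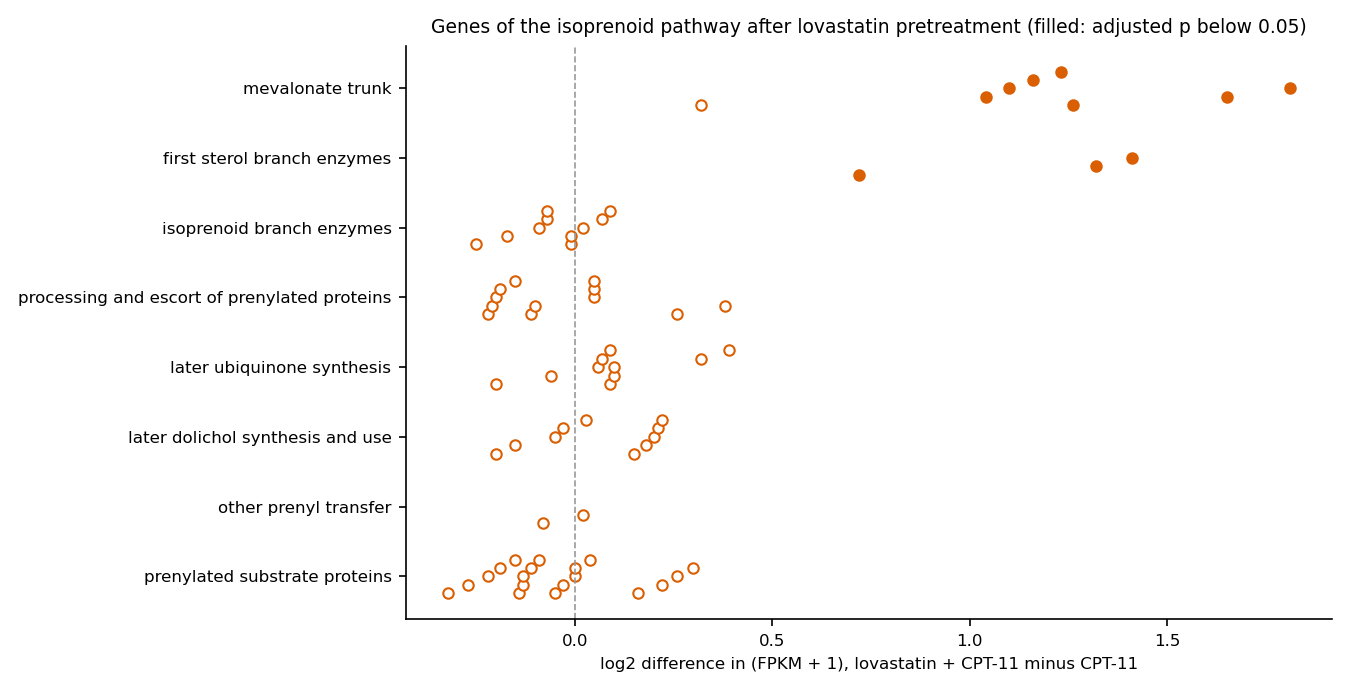
Log2 difference in (FPKM + 1) between lovastatin with CPT-11 and CPT-11 for the genes of 8 lists, 1 point per gene, filled where the adjusted p is under 0.05. The trunk and first sterol enzymes lie between 0.32 and 1.81, and the members between -0.25 and 0.09.

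**Figure D5:**
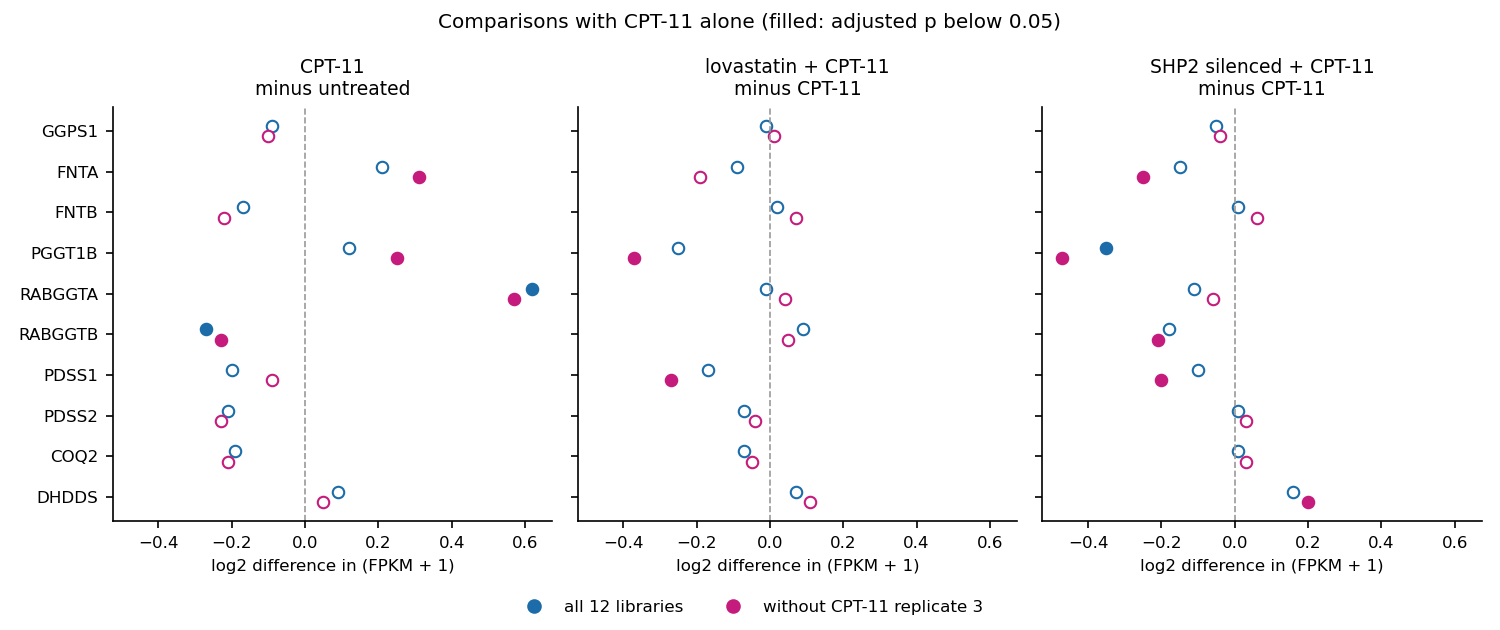
Log2 differences of the members in the 3 comparisons with CPT-11 alone, with all 12 libraries and without CPT-11 replicate 3, filled where the adjusted p is under 0.05. Leaving it out gives 4 rather than 2 calls against untreated cells, 2 rather than 0 for lovastatin with CPT-11 and 5 rather than 1 for silenced cells.

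Steps after the members were read from lists chosen with earlier results known. Among 10 genes of later ubiquinone synthesis, 4 rose and 3 fell in silenced cells against untreated cells, 4 rose and 3 fell after lovastatin and CPT-11, and 3 rose and 1 fell after CPT-11 (3 and 2 without CPT-11 replicate 3). Of all tested genes, 37.8%, 29% and 16.5% were called in these comparisons, in that order. COQ8A, an atypical kinase needed for ubiquinone synthesis, averaged 12.4 FPKM in silenced cells, 9.15 FPKM after lovastatin and CPT-11, 8.78 FPKM after CPT-11 and 4.81 FPKM in untreated cells, and it rose against untreated cells by 1.21 ± 0.10 (adjusted p = 9.9e-06), 0.81 ± 0.10 (adjusted p = 0.0002) and 0.74 ± 0.10 (adjusted p = 0.00063) in that order. COQ4, a scaffold of the synthesis complex, rose by 0.56 ± 0.08, 0.49 ± 0.08 and 0.39 ± 0.08 in the same comparisons. COQ5, a methyltransferase of the ring, fell by 0.33 on the log2 scale in silenced cells (adjusted p = 0.0034) and by 0.35 after CPT-11 (adjusted p = 0.0059). Both directions thus occurred among later steps, beside PDSS1 and PDSS2 that fell in the comparisons given above.

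In dolichol synthesis and use, DHDDS and its partner NUS1 differed in direction. NUS1, which forms the chain-building enzyme together with DHDDS, averaged 15.7 FPKM in silenced cells, 18.1 FPKM after lovastatin and CPT-11, 20.3 FPKM after CPT-11 and 23.2 FPKM in untreated cells. It fell by 0.53 on the log2 scale in silenced cells (SE 0.08, adjusted p = 0.00033) and by 0.33 after lovastatin and CPT-11 (SE 0.08, adjusted p = 0.0073), each against untreated cells. Of the 10 later genes of this branch, 1 rose and 5 fell in silenced cells against untreated cells, 1 fell after lovastatin and CPT-11, and 0 were called by limma or voom after CPT-11 (3 had an unadjusted p under 0.05, and 1 was called lower without CPT-11 replicate 3), where 37.8%, 29% and 16.5% of all tested genes were called. With values scaled to library totals, 2 rose and 3 fell in silenced cells.

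Of 12 genes that process or escort prenylated proteins, none rose and 8 fell in silenced cells against untreated cells, where 19.5% of all tested genes were called lower. With the GC and length correction 5 fell, where 21.2% of all genes were called lower, and with values scaled to library totals 5 fell. Against CPT-11, 1 rose and 5 fell in silenced cells, where 22% of all genes were called and 12% called lower. In that comparison none rose and 3 fell with the correction (9.42% of genes lower), 0 were called with only the compared groups in the model, and none rose and 2 fell with the replicate number as a block. Against lovastatin with CPT-11, 0 of the 12 were called by limma in silenced cells (4 had an unadjusted p under 0.05, and 1 was called by voom). GDI2, which extracts Rab proteins from membranes, fell by 0.52 on the log2 scale against untreated cells (adjusted p = 0.00058), and CHML, a Rab escort protein that presents Rabs to the RABGGTA and RABGGTB enzyme, by 0.46 (adjusted p = 0.00069). PCYOX1, which breaks down prenylcysteine, fell by 0.47 against untreated cells (adjusted p = 0.0024) and by 0.47 against CPT-11 (adjusted p = 0.0085). ARHGDIA, which holds small GTPases in the cytosol, averaged 37.4 FPKM after CPT-11 and 68.0 FPKM in untreated cells, a difference of -0.86 ± 0.14 (adjusted p = 0.0015).

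Of 19 genes for prenylated proteins, 3 rose and 10 fell in silenced cells against untreated cells, 3 rose and 8 fell after lovastatin and CPT-11, and 2 rose and 4 fell after CPT-11 (3 and 4 without CPT-11 replicate 3). Of all tested genes, 19.5%, 14.3% and 7.7% were called lower in these comparisons and 18.3%, 14.7% and 8.85% higher, in that order. With values scaled to library totals, 6 rose and 9 fell in silenced cells, 5 rose and 7 fell after lovastatin and CPT-11, and 4 rose and 3 fell after CPT-11. With only the compared groups in the model, 1 rose and 2 fell after CPT-11. LMNB1, the farnesylated lamin B1, averaged 40.2 FPKM in silenced cells, 34.6 FPKM after lovastatin and CPT-11, 41.9 FPKM after CPT-11 and 70.3 FPKM in untreated cells, and it fell by 0.79, 1.00 and 0.73 on the log2 scale in the 3 comparisons with untreated cells (adjusted p of at most 6e-06). RHOA, a geranylgeranylated GTPase of the cytoskeleton, fell by 0.63, 0.57 and 0.39 in the same order (adjusted p = 7.8e-05, 0.0002 and 0.0042). NRAS, a farnesylated growth-signalling GTPase, fell by 0.64 in silenced cells against CPT-11 (adjusted p = 0.0033). RHOB, which can carry either lipid, averaged 120 FPKM after lovastatin and CPT-11, against 101 FPKM after CPT-11, a difference of 0.26 ± 0.09 (adjusted p = 0.18). Without CPT-11 replicate 3 that difference was 0.36 (adjusted p = 0.0045), where 30.2% of all tested genes were called. After CPT-11 alone RHOB differed from untreated cells by -0.31, and by -0.41 (adjusted p = 0.0021) without CPT-11 replicate 3. With only the compared groups in the model, the calls of COQ4 and RHOA after CPT-11 and of PCYOX1 against CPT-11 were lost.

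Among the groups given CPT-11, the lists of non-sterol steps past the branch point gave no call between lovastatin with CPT-11 and CPT-11. This covers 12 processing and escort, 10 ubiquinone, 10 dolichol, 2 other prenyl transfer and 19 substrate genes when all libraries were used, by limma or voom. An unadjusted p under 0.05 was found for 4, 3, 3, 0 and 7 of them, in that order. Without CPT-11 replicate 3, 2 processing and escort genes were called higher and 6 lower, 3 and 1 of the ubiquinone genes, 3 and 1 of the dolichol genes, and 4 and 8 of the substrate genes, where 30.2% of all tested genes were called. In silenced cells against CPT-11, with all libraries, 2 ubiquinone genes rose and 1 fell, 2 dolichol genes rose and 2 fell, and 6 substrate genes fell and none rose, where 22% of all genes were called. With only the compared groups in the model no ubiquinone or dolichol gene was called and 2 substrate genes fell, and with the replicate number as a block 1 ubiquinone gene rose, 1 dolichol gene rose and 2 fell, and 3 substrate genes fell. Without CPT-11 replicate 3 that comparison gave 3 higher and 1 lower ubiquinone gene, 3 higher and 4 lower dolichol genes, 2 higher and 7 lower processing and escort genes, and 2 higher and 8 lower substrate genes, where 43.5% of all genes were called. The trunk gave 1 higher gene in that comparison with all libraries, and 4 higher and 3 lower without that library. In silenced cells against lovastatin with CPT-11, the trunk gave 7 and the first sterol steps 3 lower genes, the ubiquinone list 1 higher and 1 lower, the dolichol list 1 lower and the substrates 1 higher and 3 lower, where 6.84% of all genes were called. NRAS was among those 3, with 19.1 FPKM in silenced cells and 27.1 FPKM after lovastatin and CPT-11 (-0.49 ± 0.10, adjusted p = 0.015), a call lost without silenced replicate 1 or 2 or lovastatin replicate 1 or 3 (adjusted p of up to 0.067).

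Genes with the pattern most like a member were ranked among 13742 protein-coding genes by Pearson's r of log2(FPKM + 1) over the 12 libraries. These libraries differ by group, in depth and in the slope of level on GC content. Which of these differences underlies a high r was not tested. RABGGTA was most like RFX5 (0.967), PNP (0.966) and USP11 (0.964). RABGGTB was most like TMEM248 (0.971), YTHDF2 (0.969) and ACSL3 (0.957). For DHDDS they were IRF2BP2 (0.977), GRIN2C (0.968) and LCE1C (0.962), and for PDSS1 NFYB (0.969), CDKN3 (0.959) and RSRC1 (0.946). No gene of the lists above was among them. Between members the highest r was 0.68, for FNTB and COQ2.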

How the data were processed

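Gene-level FPKM values of 12 libraries were read from a table deposited by the authors, and its coordinates match GENCODE release 29 on GRCh38 for all 58735 identified features. Per the submitters' processing notes the tools were DESeq2 1.16.1, featureCounts 1.5.0-p3, HISAT2 2.0.5 and StringTie 1.3.3b, and the build was hg19, which differs from those coordinates. The sources used here give no strand or overlap options for the counting. Multiplying FPKM by gene length gave whole reads for 100% of nonzero values (within 0.01 of a read). The test kept 18062 genes with 15 or more reads in all and 10 or more, at the depth of the median library, in 3 libraries. limma 3.58.1 (R 4.3.3) was fitted to log2(FPKM + 1) with 1 mean per group, all 12 libraries and a variance trend, and p-values were adjusted by Benjamini-Hochberg over all genes per comparison, at 0.05. The fit was tested on simulated reads with known changes between CPT-11 and untreated libraries. It called 50.7% of 1.5-fold, 92.1% of 2-fold and 100% of 4-fold changes. Smaller changes were not simulated, so a gene without a call may still differ. Intervals are 95%. GC content came from GENCODE transcripts, for 98.5% of tested genes. Promoters are from RefSeq.

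The members and lists were chosen with earlier results of these data known. Named are all members, at most 4 called genes per list and comparison with the smallest p, PTPN11, HMGCS1, RHOB, FDPS and FDFT1, and for the 4 members with the smallest F-test p the 3 genes most like them. Some genes that these rules name are not reported here. Alternatives were a pseudocount of 0.1 FPKM, other filters, only the compared groups, library totals, voom on the recovered reads, a replicate block, no trend, each library left out and, added after seeing the data, a correction for GC content and length, alone and without CPT-11 replicate 3. No group has 4 libraries, so no library was tested as an outlier. Figures were drawn with matplotlib 3.10.9.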

Additional observations from a re-analysis of the deposited data

How the results depend on the processing

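All values here are from limma on log2(FPKM + 1), and counts are of called members. In the order CPT-11 against untreated, lovastatin with CPT-11 against CPT-11, silenced against CPT-11, silenced against lovastatin with CPT-11, lovastatin with CPT-11 against untreated, silenced against untreated and any difference, the counts were 2, 0, 1, 1, 3, 4 and 4. Leaving out 1 library in turn moved them between 1 and 4, 0 and 2, 0 and 5, 0 and 1, 2 and 5, 3 and 6, and 2 and 7, in that order, and the highest counts against CPT-11 came without CPT-11 replicate 3. Silenced against CPT-11 gave 0 with no filter, 2 with a mean of at least 1 FPKM and 0 with only the compared groups, while CPT-11 against untreated gave 1 with only the compared groups, and lovastatin with CPT-11 against untreated 5 with a mean of at least 1 FPKM. The GC and length correction without CPT-11 replicate 3 gave 1 for lovastatin with CPT-11 against CPT-11 and 5 for lovastatin with CPT-11 against untreated. Counts of all genes called moved too, for silenced against CPT-11 to 451 with only the compared groups and to 1007 to 7849 with 1 library left out, against 3974, and for lovastatin with CPT-11 against CPT-11 to 41 to 5455, against 84. The cause of these moves was not tested.

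With the replicate number as a block, silenced against CPT-11 and against lovastatin with CPT-11 gave 0 called members each (PGGT1B adjusted p = 0.07, RABGGTB adjusted p = 0.062), and it changed no other count. Same-numbered libraries did not deviate together (18 pairs, r of -0.39 to 0.17, median 0.0028), so the numbers were not taken to pair the libraries.

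No called difference changed its direction. Uncalled ones that did were, with scaling to library totals, RABGGTA in lovastatin with CPT-11 against CPT-11 (0.01) and FNTB in silenced cells against lovastatin with CPT-11 (0.01). With the GC and length correction they were, in lovastatin with CPT-11 against CPT-11, GGPS1 (0.07), FNTA (0.04) and FNTB (-0.05), and in silenced cells against CPT-11, GGPS1 (0.11), FNTA (0.06), FNTB (-0.07) and RABGGTB (0.04). The same correction gave GGPS1 0.03, FNTA 0.02 and PGGT1B 0.02 in silenced cells against lovastatin with CPT-11, and GGPS1 0.01 and PGGT1B 0.02 in silenced cells against untreated. With 1 library left out, differences of lovastatin with CPT-11 to CPT-11 ran from -0.06 to 0.02 for GGPS1, -0.06 to 0.13 for FNTB, -0.09 to 0.04 for RABGGTA and -0.15 to 0.01 for COQ2. Those of silenced cells to CPT-11 ran from -0.03 to 0.06 for FNTB, -0.05 to 0.04 for PDSS2 and -0.02 to 0.06 for COQ2, and those to lovastatin with CPT-11 from -0.11 to 0.01 for GGPS1 and -0.12 to 0.07 for FNTB. GGPS1 and FNTB had 124 to 197 reads per library, which limits their precision.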
